A study of Mus musculus with 24 samples.

Results

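The genes described here encode the hypoxia-inducible factors (HIFs) HIF-1α and HIF-2α (*Hif1a* and *Epas1*), the HIF prolyl hydroxylases PHD2 and PHD3 (*Egln1* and *Egln3*), and targets that low oxygen is known to induce in many cells (*Vegfa*, *Adm*, *Bnip3*, *Ndrg1*, *P4ha1*, and *Ankrd37*). They were taken from a fixed list of symbols and matched to the Ensembl identifiers of the gene count table, which gave 10 members of 56884 genes. All 10 passed the expression filter, which kept 13679 genes for testing.

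HIF-1α and HIF-2α are controlled mainly through protein stability. In the presence of oxygen, the prolyl hydroxylases mark them for binding by the von Hippel–Lindau protein and for degradation, and when oxygen is scarce they accumulate, pair with ARNT and bind short DNA elements near their targets. In macrophages, HIF-1α is known for its part in glycolytic and inflammatory activation, and several HIF targets can also be induced by other stress pathways, including the integrated stress response (ISR). Transcript levels of *Hif1a* or *Epas1* do not measure the proteins, and no oxygen or protein measurement was analysed here.

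The RNA came from bone marrow–derived macrophages (BMDM), grown with M-CSF from the marrow of wild-type C57BL/6J mice, to compare how inhibitors that engage the ISR alter the response to IL-4 and IL-13. Each of 4 mice, numbered 1, 2, 4 and 5, gave 1 library in each of 6 groups, 24 libraries in all. Naive macrophages received no cytokine, and the IL-4/IL-13 group received 20 ng/ml of each cytokine for 24 hours. The other groups received both cytokines together with an inhibitor that was also given for 1 hour beforehand. Tunicamycin (5 µg/ml) blocks N-glycosylation in the endoplasmic reticulum, and Sal003 (10 µM) inhibits dephosphorylation of eIF2α. Oligomycin (1 µM), an inhibitor of ATP synthase in mitochondria, was given to 2 groups, 1 of them together with ISRIB (1 µM), an antagonist of the ISR. Sample titles and library names disagreed on which group received ISRIB. Oligomycin set A therefore denotes the libraries that have ISRIB in their title only, and oligomycin set B those that have it in their library name only, and expression was not consulted to choose between the readings. All 6 groups are cultured cells without a low-oxygen arm, so none is a positive control for hypoxia.

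Reads counted on genes numbered 16238727 to 26725278 per library (median 18999998). The markers of macrophages fixed for checking the labels were all detected in every group, with a summed level of 8782 to 36949.7 CPM per library (counts scaled to a common library size), lowest in oligomycin set A and highest in naive libraries. Summed neutrophil markers were 40.6 to 76.8 CPM in naive, 24.1 to 44.4 CPM in IL-4/IL-13 and 18.8 to 24.7 CPM in oligomycin set B libraries. They were 5.09 to 8.49 CPM in Sal003, 2.73 to 4.71 CPM in oligomycin set A and 0.103 to 0.286 CPM in tunicamycin libraries. In set A and in tunicamycin libraries alike, 3 of the 8 genes were at 0. Summed stromal and endothelial markers ranged from 56.8 CPM in a tunicamycin library to 441 CPM in a library of oligomycin set A. In naive macrophages *Col1a1*, *Col1a2* and *Vwf* averaged 36.4, 38.1 and 35.9 CPM, and *Col1a1* ranged from 8.15 to 62.1 CPM between mice. With IL-4/IL-13 the 3 means were 21.3, 25.5 and 206 CPM. Both collagen means were lower again in each inhibitor group, and *Vwf* made up most of the sum in all groups but the naive one. The markers of T and B cells stayed between 0.157 and 3.28 CPM. Those of dendritic and mast cells summed to 1.97 to 9.09 CPM. These lists moved with the groups compared below, and their part in the results was not tested. In RNA from whole cultures, fewer cells expressing a gene and less RNA of it per cell cannot be told apart.

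HIF complexes bind the core letters ACGTG or GCGTG. Both were searched on either strand in the 250 bases before the start of the Ensembl canonical transcript of each gene. TGATGNAA, the element shared by ATF4 and C/EBP factors, was searched in the same windows. For *Hif1a* (chr12:73954320-73954569) and *Ankrd37* (chr8:46452906-46453155) this window lies inside the annotated gene, behind the start of a longer transcript. The *Epas1* window reaches into the gene with its last bases. At least 1 core was present in 9 of 10 members, compared with 52.9% of 11958 promoters of tested protein-coding genes, and a core is thus common in windows of this length. Counted separately, ACGTG was found in 21.2% and GCGTG in 41.5% of all promoters, and promoters with both enter both shares. TGATGNAA was found in 0 members and in 2.22% of all promoters. In *Hif1a*, *Egln1* and *Bnip3* the ACGTG match lay within the palindrome CACGTG, which counts once on each strand and was present in 7.97% of all promoters. The 4 windows shown belong to *Vegfa*, *Ndrg1*, *P4ha1* and *Bnip3*, the targets that rose with tunicamycin and in both oligomycin groups (below), and *Bnip3* had the most matches of any member, 5. They are from GRCm39, read 5′ to 3′ on the strand of the gene, with the HIF core in capitals, which also mark its reverse complement. The 33 bases of the *Ndrg1* window nearest to the start are not printed, because another transcript of the gene covers them, and they hold the last of its 3 matches.
*Vegfa* (chr17:46343310-46343559, minus strand): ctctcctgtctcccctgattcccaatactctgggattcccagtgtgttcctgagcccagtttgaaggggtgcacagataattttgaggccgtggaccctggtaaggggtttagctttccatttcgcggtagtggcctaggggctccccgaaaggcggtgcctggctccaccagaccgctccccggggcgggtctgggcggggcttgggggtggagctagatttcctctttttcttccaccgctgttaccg
*Ndrg1* (chr15:66841836-66842052, minus strand): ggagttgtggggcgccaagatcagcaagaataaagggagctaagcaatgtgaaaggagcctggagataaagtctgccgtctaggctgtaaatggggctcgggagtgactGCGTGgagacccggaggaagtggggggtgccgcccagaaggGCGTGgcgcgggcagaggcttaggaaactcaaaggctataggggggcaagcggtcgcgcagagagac
*P4ha1* (chr10:59158842-59159091, plus strand): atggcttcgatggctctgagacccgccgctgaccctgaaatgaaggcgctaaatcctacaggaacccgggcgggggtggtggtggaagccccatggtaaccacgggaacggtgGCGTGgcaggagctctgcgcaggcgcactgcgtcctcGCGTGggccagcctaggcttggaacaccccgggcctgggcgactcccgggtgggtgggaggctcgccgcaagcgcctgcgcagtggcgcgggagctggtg
*Bnip3* (chr7:138511254-138511503, minus strand): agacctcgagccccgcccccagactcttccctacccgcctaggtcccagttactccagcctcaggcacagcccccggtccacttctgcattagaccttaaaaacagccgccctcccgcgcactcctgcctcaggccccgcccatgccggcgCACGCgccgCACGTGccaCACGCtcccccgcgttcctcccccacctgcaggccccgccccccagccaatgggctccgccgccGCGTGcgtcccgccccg
The *Vegfa* window holds neither core, which says only that these letters are absent from this stretch.

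*Hif1a* (ENSMUSG00000021109, chr12:73948149-73996321, plus strand of GRCm39), the gene of HIF-1α, was among the 3 most abundant of these transcripts per exonic length in every group. Values are CPM relative to the normalized library size and are given for mice 1, 2, 4 and 5 in this order throughout. *Hif1a* stood at 197, 144, 198 and 170.4 CPM in naive macrophages and at 125, 119, 129 and 126 CPM with IL-4/IL-13. With tunicamycin it stood at 161, 169, 169 and 168 CPM, and with Sal003 at 119.9, 111, 117 and 114 CPM. It was 166, 173, 167 and 157 CPM in oligomycin set A and 147, 134, 146 and 123 CPM in set B of oligomycin. All IL-4/IL-13 libraries lay below all naive ones, and all libraries of tunicamycin and of oligomycin set A lay above all IL-4/IL-13 ones. IL-4/IL-13 lowered *Hif1a* (log2 fold change -0.51, SE 0.07, adjusted *P* = 1.1e-06 by the quasi-likelihood test of edgeR, used throughout, with Benjamini-Hochberg adjustment over 13679 genes). It rose with tunicamycin (log2 fold change 0.42, SE 0.07, adjusted *P* = 1e-05) and in oligomycin set A (log2 fold change 0.41, SE 0.07, adjusted *P* = 2e-05), but not detectably with Sal003 (95% interval of the log2 difference -0.26 to 0.04) or in oligomycin set B (-0.01 to 0.29). Set A exceeded set B in all 4 mice (log2 fold change 0.27, SE 0.07, adjusted *P* = 0.0037). Naive macrophages, tunicamycin and oligomycin set A had the highest means, and neighbours in this order did not differ beyond their spread (adjusted *P* = 0.26 and 0.9). An antisense transcript overlaps 8.33% of the exonic bases of *Hif1a*.

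*Epas1* (ENSMUSG00000024140, chr17:87061087-87140838, plus strand), the gene of HIF-2α, was counted at far lower levels than *Hif1a*. Naive libraries held 3.07, 1.93, 2.79 and 2.63 CPM of *Epas1*, and IL-4/IL-13 libraries 5.51, 4.44, 4.53 and 4.55 CPM. Tunicamycin libraries held 0.565, 0.428, 0.284 and 0.357 CPM and Sal003 libraries 4.62, 3.89, 4.53 and 3.24 CPM. The values were 5.3, 3.25, 3.82 and 3.35 CPM for oligomycin set A and 4.44, 2.98, 5.65 and 3.06 CPM for oligomycin set B. IL-4/IL-13 libraries were all above naive ones, and the tunicamycin libraries, with 5 to 11 reads each, were all below those of every other group. *Epas1* rose with IL-4/IL-13 (log2 fold change 0.86, SE 0.20, adjusted *P* = 0.00062), in the direction opposite to *Hif1a*. Tunicamycin lowered it 11.4-fold relative to IL-4/IL-13 alone (log2 fold change -3.51, SE 0.27, adjusted *P* = 1.2e-11), while *Hif1a* rose. With Sal003 and in both oligomycin sets *Epas1* did not pass the test against IL-4/IL-13 (adjusted *P* = 0.34, 0.21 and 0.28), with 95% intervals of the log2 difference between -0.66 and 0.17. Both oligomycin sets and Sal003 stayed above naive macrophages in mean level. Leaving out mouse 4 turned the difference between the oligomycin sets from -0.02 to 0.19 on the log2 scale, with neither value past the test.

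**Figure D1:**
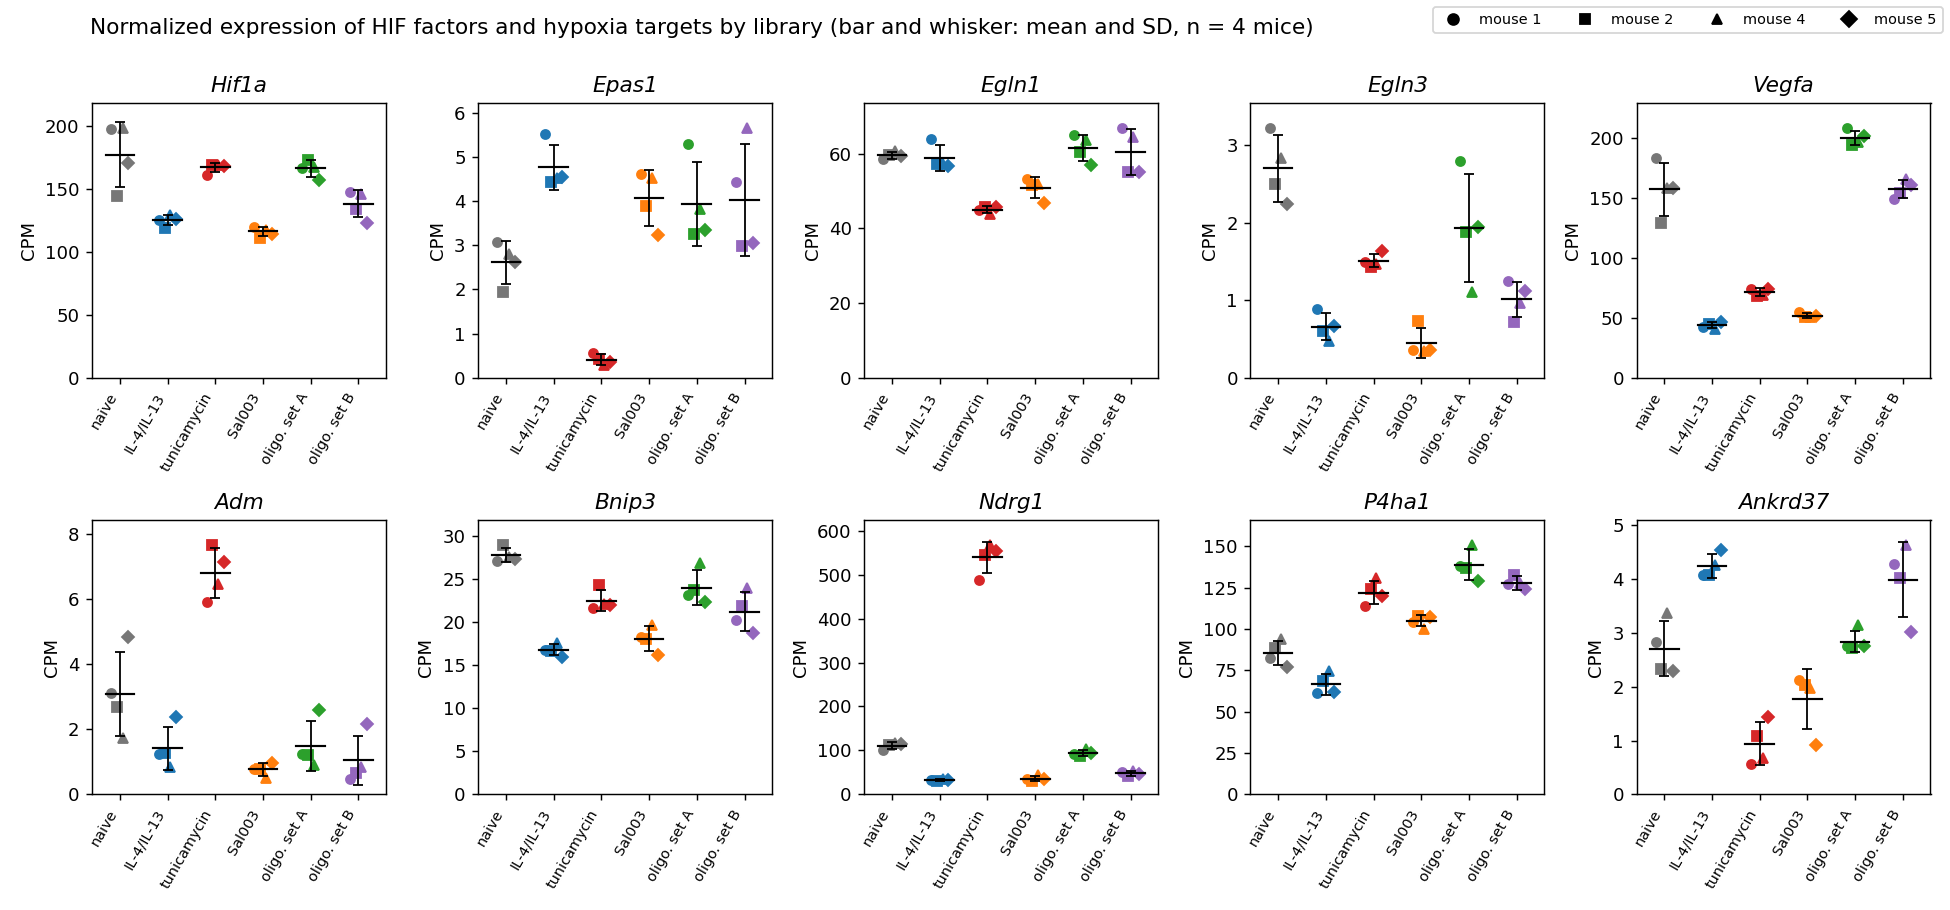
Each panel shows 1 gene, with CPM on the vertical axis starting at 0 and the 6 groups on the horizontal axis. Points are libraries with a symbol per mouse, and the line and whiskers are the mean and SD of 4 mice. *Ndrg1* with tunicamycin (488 to 568 CPM) and *Epas1* with tunicamycin (0.284 to 0.565 CPM) stand apart from all other groups, and *Vegfa* is highest in oligomycin set A (194 to 208 CPM).

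*Egln1* (ENSMUSG00000031987, chr8:125635308-125676865, minus strand) encodes PHD2, the main oxygen sensor of the pathway. In naive macrophages *Egln1* was 58.5, 59.6, 60.8 and 59.2 CPM, and after IL-4/IL-13 it was 63.9, 57.3, 57.1 and 56.7 CPM. Its level was 44.9, 45.6, 43.7 and 45.6 CPM with tunicamycin and 53.3, 51.6, 51.8 and 46.8 CPM with Sal003. Oligomycin gave 65, 60.5, 63.5 and 56.9 CPM (set A) and 66.8, 55.1, 64.4 and 55 CPM (set B). The naive, IL-4/IL-13 and oligomycin libraries overlapped, Sal003 libraries were all below IL-4/IL-13 ones, and tunicamycin libraries were below every other library. IL-4/IL-13 did not alter *Egln1* detectably (log2 fold change -0.02, SE 0.06, adjusted *P* = 0.8), and the 95% interval of the log2 difference was -0.14 to 0.10. It fell with tunicamycin (log2 fold change -0.39, SE 0.06, adjusted *P* = 3.1e-06) and with Sal003 (log2 fold change -0.21, SE 0.06, adjusted *P* = 0.0055). In oligomycin sets A and B the intervals against IL-4/IL-13 were -0.06 to 0.19 and -0.09 to 0.16.

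*Egln3* (ENSMUSG00000035105, chr12:54225767-54250673, minus strand) encodes PHD3, a hydroxylase whose transcript is itself a HIF target. *Egln3* stood at 3.22, 2.5, 2.84 and 2.24 CPM in naive macrophages and at 0.891, 0.605, 0.474 and 0.668 CPM with IL-4/IL-13. With tunicamycin it stood at 1.49, 1.43, 1.47 and 1.63 CPM, and with Sal003 at 0.363, 0.733, 0.34 and 0.36 CPM. It was 2.79, 1.88, 1.1 and 1.95 CPM in oligomycin set A and 1.25, 0.716, 0.961 and 1.12 CPM in set B of oligomycin. All IL-4/IL-13 libraries were below all naive ones, and all tunicamycin and set A libraries were above all IL-4/IL-13 ones. *Egln3* fell 4.09-fold with IL-4/IL-13 (log2 fold change -2.03, SE 0.26, adjusted *P* = 2e-07), while *Egln1* did not pass the test. It rose with tunicamycin (log2 fold change 1.19, SE 0.27, adjusted *P* = 0.00039) and in oligomycin set A (log2 fold change 1.55, SE 0.26, adjusted *P* = 1.3e-05). In set B the interval of the log2 difference was 0.03 to 1.22 but the adjusted *P* value of 0.069 missed the threshold, and with Sal003 it was -1.24 to 0.14. Set A exceeded set B (log2 fold change 0.93, SE 0.24, adjusted *P* = 0.0033), although mouse 4 of set A lay below 2 libraries of set B. No neighbouring pair in the order of mean levels passed the test on its own. Counts of *Egln3* were low, from 9 to 16 reads per IL-4/IL-13 library.

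*Vegfa* (ENSMUSG00000023951, chr17:46327919-46343309, minus strand) encodes the angiogenic growth factor VEGF-A and is a classical HIF target. Naive libraries held 183, 129, 158 and 158 CPM of *Vegfa*, and IL-4/IL-13 libraries 42.6, 45.1, 40.6 and 46.8 CPM. Tunicamycin libraries held 74.3, 68, 69.3 and 73.6 CPM and Sal003 libraries 54.4, 50.5, 50.7 and 51.2 CPM. The values were 208, 194, 196 and 201 CPM for oligomycin set A and 149, 154, 166 and 161 CPM for oligomycin set B. The groups of naive, IL-4/IL-13, tunicamycin, Sal003 and set A libraries did not overlap each other, whereas set B overlapped naive macrophages only. IL-4/IL-13 lowered *Vegfa* 3.58-fold (log2 fold change -1.84, SE 0.07, adjusted *P* = 5.7e-17). Oligomycin set A raised it 4.56-fold over IL-4/IL-13 (log2 fold change 2.19, SE 0.07, adjusted *P* = 2e-18), which was the largest rise of any member in either oligomycin set, and set B raised it 3.59-fold (log2 fold change 1.85, SE 0.07, adjusted *P* = 2.1e-16). Within each mouse, the ratio of set A to IL-4/IL-13 lay between 4.29 and 4.87, and that of set A to naive between 1.14 and 1.51. Mean levels in set A exceeded naive ones (log2 difference 0.35, SE 0.07, adjusted *P* = 6.5e-05), and those in set B could not be separated from naive (adjusted *P* = 0.96).

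Tunicamycin raised *Vegfa* less, 1.63-fold (log2 fold change 0.70, SE 0.07, adjusted *P* = 3e-09), and left it below all naive libraries. With Sal003 *Vegfa* rose 1.18-fold (log2 fold change 0.24, SE 0.07, adjusted *P* = 0.0083). That small rise lost its call without mouse 4 (log2 fold change 0.22, adjusted *P* = 0.066). Set A also exceeded set B (log2 fold change 0.34, SE 0.07, adjusted *P* = 0.00019 by edgeR's quasi-likelihood test).

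*Adm* (ENSMUSG00000030790, chr7:110226858-110229027, plus strand) encodes adrenomedullin, a vasodilator peptide. In naive macrophages *Adm* was 3.12, 2.67, 1.72 and 4.82 CPM, and after IL-4/IL-13 it was 1.23, 1.26, 0.842 and 2.37 CPM. Its level was 5.91, 7.66, 6.47 and 7.13 CPM with tunicamycin and 0.779, 0.789, 0.51 and 0.978 CPM with Sal003. Oligomycin gave 1.23, 1.22, 0.89 and 2.6 CPM (set A) and 0.487, 0.661, 0.848 and 2.17 CPM (set B). Tunicamycin libraries were above every other library, whereas all other groups overlapped at least 1 neighbour. Mouse 5 had the highest *Adm* of the 4 mice in every group except tunicamycin. *Adm* rose 4.83-fold with tunicamycin (log2 fold change 2.27, SE 0.35, adjusted *P* = 2.1e-06), to a level above naive macrophages (log2 difference 1.13, SE 0.31, adjusted *P* = 0.002). It fell with IL-4/IL-13 (log2 fold change -1.14, SE 0.37, adjusted *P* = 0.0098) in 4 of 4 mice, and this call was lost without mouse 1 (adjusted *P* = 0.06). Unlike *Vegfa*, it did not pass the test in oligomycin set A or B against IL-4/IL-13 (log2 fold change 0.08, SE 0.40, adjusted *P* = 0.87; log2 fold change -0.34, SE 0.42, adjusted *P* = 0.52), but the 95% intervals of -0.75 to 0.91 and -1.20 to 0.53 are wide. With Sal003 it was lower without passing the test (log2 fold change -0.86, SE 0.45, adjusted *P* = 0.12), and with the mouse as a block the same difference passed (log2 fold change -0.87, adjusted *P* = 0.028). A transcript on the opposite strand overlaps 31.9% of its exonic bases, and counts were low, 9 to 19 reads per Sal003 library.

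*Bnip3* (ENSMUSG00000078566, chr7:138490690-138511253, minus strand) encodes a protein of the mitochondrial outer membrane that promotes mitophagy. *Bnip3* stood at 27.1, 29, 27.6 and 27.4 CPM in naive macrophages and at 16.8, 16.7, 17.6 and 16 CPM with IL-4/IL-13. With tunicamycin it stood at 21.7, 24.3, 22.1 and 22 CPM, and with Sal003 at 18.3, 18, 19.7 and 16.2 CPM. It was 23.2, 23.7, 26.9 and 22.3 CPM in oligomycin set A and 20.3, 21.9, 24 and 18.7 CPM in set B of oligomycin. Naive libraries were above those of every other group, IL-4/IL-13 and Sal003 libraries overlapped at the lower end, and tunicamycin and oligomycin set A libraries lay between. Set B lay above all IL-4/IL-13 libraries, but its lowest library (18.7 CPM) was below the highest of Sal003 (19.7 CPM). *Bnip3* fell with IL-4/IL-13 (log2 fold change -0.73, SE 0.07, adjusted *P* = 3.7e-09), and rose with tunicamycin (log2 fold change 0.42, SE 0.07, adjusted *P* = 1.2e-05), in set A (log2 fold change 0.52, SE 0.07, adjusted *P* = 9.4e-07) and in set B (log2 fold change 0.33, SE 0.07, adjusted *P* = 0.00044). Sal003 did not shift it detectably, with a 95% interval of -0.05 to 0.26 on the log2 scale. The difference between the oligomycin sets was small (log2 fold change 0.18, SE 0.07, adjusted *P* = 0.044) and lost its call with DESeq2 (adjusted *P* = 0.067), without the filter on low counts, with only the groups compared, and without mouse 1, 2 or 5 (adjusted *P* values up to 0.15). Of its 100-base stretches, 7.65% also occur in other genes, and an opposite-strand transcript covers 11.7% of its exonic bases.

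*Ndrg1* (ENSMUSG00000005125, chr15:66801166-66841835, minus strand) encodes a cytoplasmic stress protein that hypoxia, metals and stress of the endoplasmic reticulum are known to induce. Naive libraries held 101, 112, 118 and 114 CPM of *Ndrg1*, and IL-4/IL-13 libraries 32, 30.7, 34.9 and 33.7 CPM. Tunicamycin libraries held 488, 545, 568 and 554 CPM and Sal003 libraries 35, 30.8, 43.1 and 33.9 CPM. The values were 92, 87.9, 104 and 94.6 CPM for oligomycin set A and 51.9, 41, 53.7 and 46.2 CPM for oligomycin set B. Tunicamycin libraries stood above all others, naive and set A libraries overlapped, and IL-4/IL-13 and Sal003 libraries overlapped at the bottom. Set B lay above all IL-4/IL-13 libraries, but its lowest library (41 CPM) was below the highest of Sal003 (43.1 CPM). *Ndrg1* fell 3.39-fold with IL-4/IL-13 (log2 fold change -1.76, SE 0.09, adjusted *P* = 8.1e-15). With tunicamycin it rose 16.4-fold (log2 fold change 4.04, SE 0.09, adjusted *P* = 3.7e-22), the largest change of any member in the 6 comparisons, and the ratio within each mouse lay between 15.2 and 17.8. Relative to naive macrophages it was also higher (log2 difference 2.28, SE 0.08, adjusted *P* = 5.2e-18). Set A raised *Ndrg1* 2.88-fold (log2 fold change 1.53, SE 0.09, adjusted *P* = 1e-13), close to but below naive levels (log2 difference 0.23, adjusted *P* = 0.015), and set B raised it 1.47-fold (log2 fold change 0.55, SE 0.09, adjusted *P* = 1.1e-05). Set A exceeded set B in every library (log2 fold change 0.97, SE 0.09, adjusted *P* = 1.5e-09), and Sal003 gave no detectable change (95% interval -0.07 to 0.31). Opposite-strand transcripts overlap 14.2% of its exonic bases.

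*P4ha1* (ENSMUSG00000019916, chr10:59159092-59209126, plus strand) encodes a subunit of collagen prolyl 4-hydroxylase, an enzyme of the endoplasmic reticulum. In naive macrophages *P4ha1* was 82.5, 88.6, 94.2 and 77 CPM, and after IL-4/IL-13 it was 61.2, 68.4, 74.9 and 61.8 CPM. Its level was 114, 124, 131 and 120.2 CPM with tunicamycin and 104, 108, 100.3 and 107 CPM with Sal003. Oligomycin gave 138, 137, 151 and 129 CPM (set A) and 127, 133, 128 and 124 CPM (set B). All libraries of the 4 inhibitor groups were above all naive libraries, which in turn were above all IL-4/IL-13 libraries. *P4ha1* fell slightly with IL-4/IL-13 (log2 fold change -0.36, SE 0.07, adjusted *P* = 4.1e-05) and rose with tunicamycin (log2 fold change 0.88, SE 0.07, adjusted *P* = 7.2e-12), Sal003 (log2 fold change 0.65, SE 0.07, adjusted *P* = 8e-09), oligomycin set A (log2 fold change 1.06, SE 0.07, adjusted *P* = 3.8e-13) and oligomycin set B (log2 fold change 0.94, SE 0.07, adjusted *P* = 9e-12). *Vegfa* also rose with every inhibitor. The share of all genes tested that did so was not counted, and these comparisons share the same IL-4/IL-13 libraries. With Sal003 the 1.57-fold rise of *P4ha1* was the largest of any member. The oligomycin sets were not separable by the main test (95% interval -0.02 to 0.25). With upper-quartile normalization set A passed as higher (log2 difference 0.15, adjusted *P* = 0.048).

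*Ankrd37* (ENSMUSG00000050914, chr8:46449939-46458744, minus strand) encodes an ankyrin repeat protein whose transcript is induced by HIF-1 in many cells. Levels of *Ankrd37* were 2.83, 2.33, 3.38 and 2.29 CPM in the naive and 4.07, 4.08, 4.26 and 4.55 CPM in the IL-4/IL-13 group. They were 0.565, 1.09, 0.681 and 1.43 CPM in the tunicamycin and 2.13, 2.03, 1.98 and 0.927 CPM in the Sal003 group. In oligomycin set A they were 2.75, 2.73, 3.14 and 2.75 CPM, and in the other oligomycin set 4.28, 4.02, 4.64 and 3.02 CPM. IL-4/IL-13 libraries were above all naive, set A, Sal003 and tunicamycin libraries, and overlapped those of set B. *Ankrd37* thus moved opposite to *Vegfa* and *Ndrg1* in several comparisons. It rose with IL-4/IL-13 (log2 fold change 0.65, SE 0.20, adjusted *P* = 0.0073) and fell with tunicamycin (log2 fold change -2.15, SE 0.23, adjusted *P* = 7.2e-09), with Sal003 (log2 fold change -1.27, SE 0.21, adjusted *P* = 2.1e-05) and in oligomycin set A (log2 fold change -0.58, SE 0.20, adjusted *P* = 0.013), whereas set B gave a 95% interval of -0.50 to 0.30. The rise with IL-4/IL-13 and the fall in set A each lost the call without mouse 2 (adjusted *P* = 0.056 and 0.062). Set A was lower than set B without passing the test (log2 fold change -0.48, SE 0.20, adjusted *P* = 0.056), and passed with the mouse as a block (log2 fold change -0.47, adjusted *P* = 0.034). Genes on the opposite strand, *Ufsp2* and *Lrp2bp*, overlap 81.4% of the exonic bases of *Ankrd37*, and 41.2% of its 100-base stretches occur in them. *Ufsp2* stood at 48 CPM with IL-4/IL-13 and 109 CPM with tunicamycin (log2 fold change 1.18, SE 0.04, adjusted *P* = 5.3e-19). Since whether the counting used strand is not given in the sources used here, reads of these genes cannot be told apart with certainty, and the part of this overlap in the *Ankrd37* result was not tested.

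Levels were compared between genes as TPM, that is, counts per exonic length scaled to a common total, computed here from the counts and the exonic length of each gene. In naive macrophages *Vegfa* (178 ± 32.8 TPM, mean ± SD, n = 4) and *Hif1a* (103 ± 18.9 TPM) were the most abundant members. With IL-4/IL-13 *Hif1a* (68.3 ± 2.12 TPM) led, with *P4ha1* (46.9 ± 3.93 TPM) and *Vegfa* (46.6 ± 3.21 TPM) next. Tunicamycin put *Ndrg1* first, at 372 ± 21.5 TPM, and both oligomycin sets put *Vegfa* first, at 237 ± 9.1 TPM in set A and 169.7 ± 8.21 TPM in set B. With Sal003, *P4ha1* (72.8 ± 2.97 TPM) and *Hif1a* (62.4 ± 1.84 TPM) led. *Epas1*, *Egln3*, *Adm* and *Ankrd37* lay between 0.374 TPM (*Epas1* with tunicamycin) and 10.3 TPM (*Ankrd37* with IL-4/IL-13) in all groups, with the exception of *Adm* with tunicamycin (21.5 TPM).

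**Figure D2:**
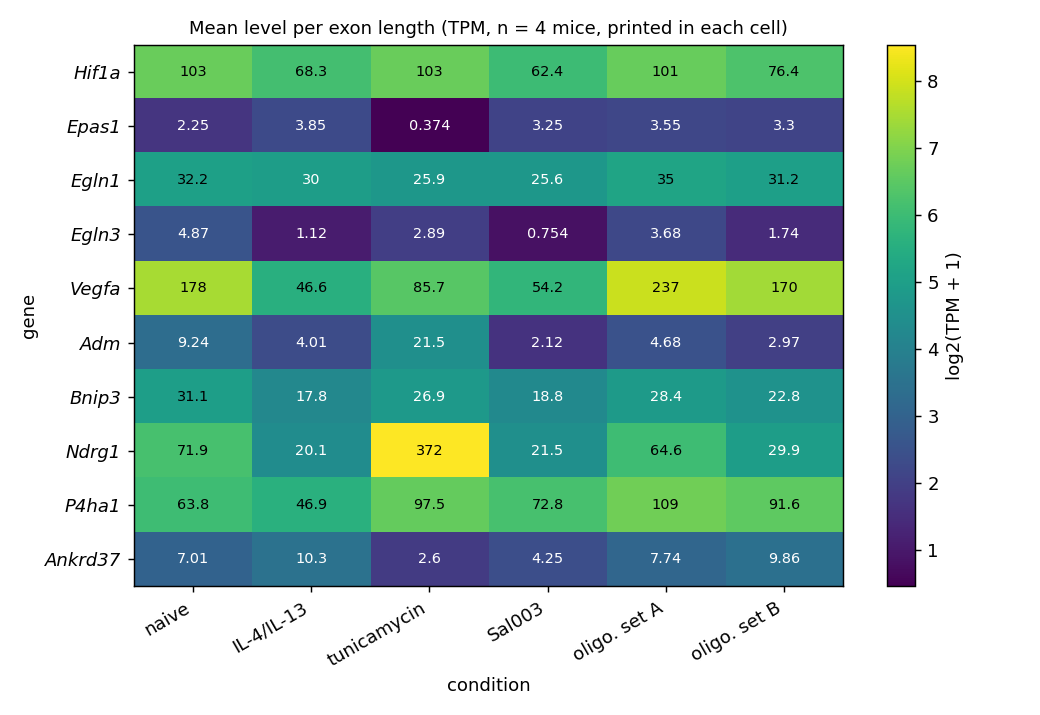
Each cell gives the mean TPM of 4 mice for 1 gene (rows) in 1 group (columns), and its colour the log2 of that mean plus 1. The brightest cells are *Ndrg1* with tunicamycin (372 TPM) and *Vegfa* in oligomycin set A (237 TPM), and the darkest is *Epas1* with tunicamycin (0.374 TPM).

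Set side by side, IL-4/IL-13 stimulation lowered most of the targets and both *Hif1a* and *Egln3*. *Egln3*, *Vegfa* and *Ndrg1* fell the most, by 4.09-fold, 3.58-fold and 3.39-fold. Smaller falls were seen for *Adm*, *Bnip3*, *Hif1a* and *P4ha1*, and *Epas1* and *Ankrd37* rose. At an adjusted *P* value under 0.05, 9 of 10 members passed (2 higher, 7 lower), compared with 60.5% of all genes tested (30.1% higher, 30.4% lower). With the added minimum of 2.5-fold, 3 members passed, all lower, compared with 11.5% of all genes. The median log2 fold change of the members was -0.62, and that of all genes tested was -0.02. Summed macrophage markers fell from a median of 34461 CPM to 11738 CPM in the same comparison.

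Tunicamycin changed every member relative to IL-4/IL-13 alone. *Ndrg1* and *Adm* rose the most, *Egln3*, *P4ha1*, *Vegfa*, *Hif1a* and *Bnip3* rose less, and *Epas1*, *Ankrd37* and *Egln1* fell. The 10 of 10 called (7 higher, 3 lower) stand beside 76.3% of all genes (38.7% higher, 37.6% lower). With the 2.5-fold minimum 4 members passed, *Ndrg1* and *Adm* higher and *Epas1* and *Ankrd37* lower, against 22.6% of all genes. The median log2 fold change was 0.56 for the members and 0.01 for all genes. Summed neutrophil markers were 0.212 CPM in the median tunicamycin library and 40.6 CPM in the median IL-4/IL-13 library.

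With Sal003, *P4ha1* and *Vegfa* rose and *Ankrd37* and *Egln1* fell. The 4 of 10 called stand beside 50.6% of all genes (25.9% higher, 24.6% lower). None reached 2.5-fold, with edgeR at an adjusted or an unadjusted *P* value under 0.05 (0 members each) or with DESeq2 (0 members), compared with 7.71% of all genes, and the strongest change was the 2.4-fold lower level of *Ankrd37*.

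Oligomycin raised the targets *Vegfa*, *Ndrg1*, *P4ha1* and *Bnip3* in both sets, and *Egln3* and *Hif1a* in set A. The target *Ankrd37* fell in set A and did not pass the test in set B, and *Adm* passed it in neither set. In set A 7 of 10 members were called (6 higher, 1 lower), compared with 66.2% of all genes (34% higher, 32.2% lower), and *Vegfa*, *Egln3* and *Ndrg1* exceeded 2.5-fold, 3 of 10 against 12.7% of all genes. In set B 4 of 10 were called, all higher, compared with 54.3% of all genes (27.9% higher, 26.4% lower), and *Vegfa* alone exceeded 2.5-fold, against 7.96% of all genes. Whether the share called differed from that of all genes was not tested. All 4 comparisons of an inhibitor group used the same IL-4/IL-13 libraries, which are also the ones compared with naive macrophages.

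Compared directly, set A was higher than set B for *Ndrg1* (1.96-fold), *Egln3* (1.9-fold), *Vegfa* (1.27-fold), *Hif1a* (1.2-fold) and *Bnip3* (1.13-fold). These 5 of 10 stand beside 41.2% of all genes tested (19.9% higher, 21.3% lower). The call of *Bnip3* was lost in several alternatives, DESeq2 among them (adjusted *P* = 0.067). Neither edgeR nor DESeq2 found a member past 2.5-fold (0 at an adjusted and at an unadjusted *P* value under 0.05), compared with 2.62% of all genes. Read by title, this is oligomycin with ISRIB against oligomycin without it, and read by library name, it is the reverse. Neutrophil markers also differed between these sets, with median sums of 3.36 CPM (set A) and 21.6 CPM (set B).

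**Figure D3:**
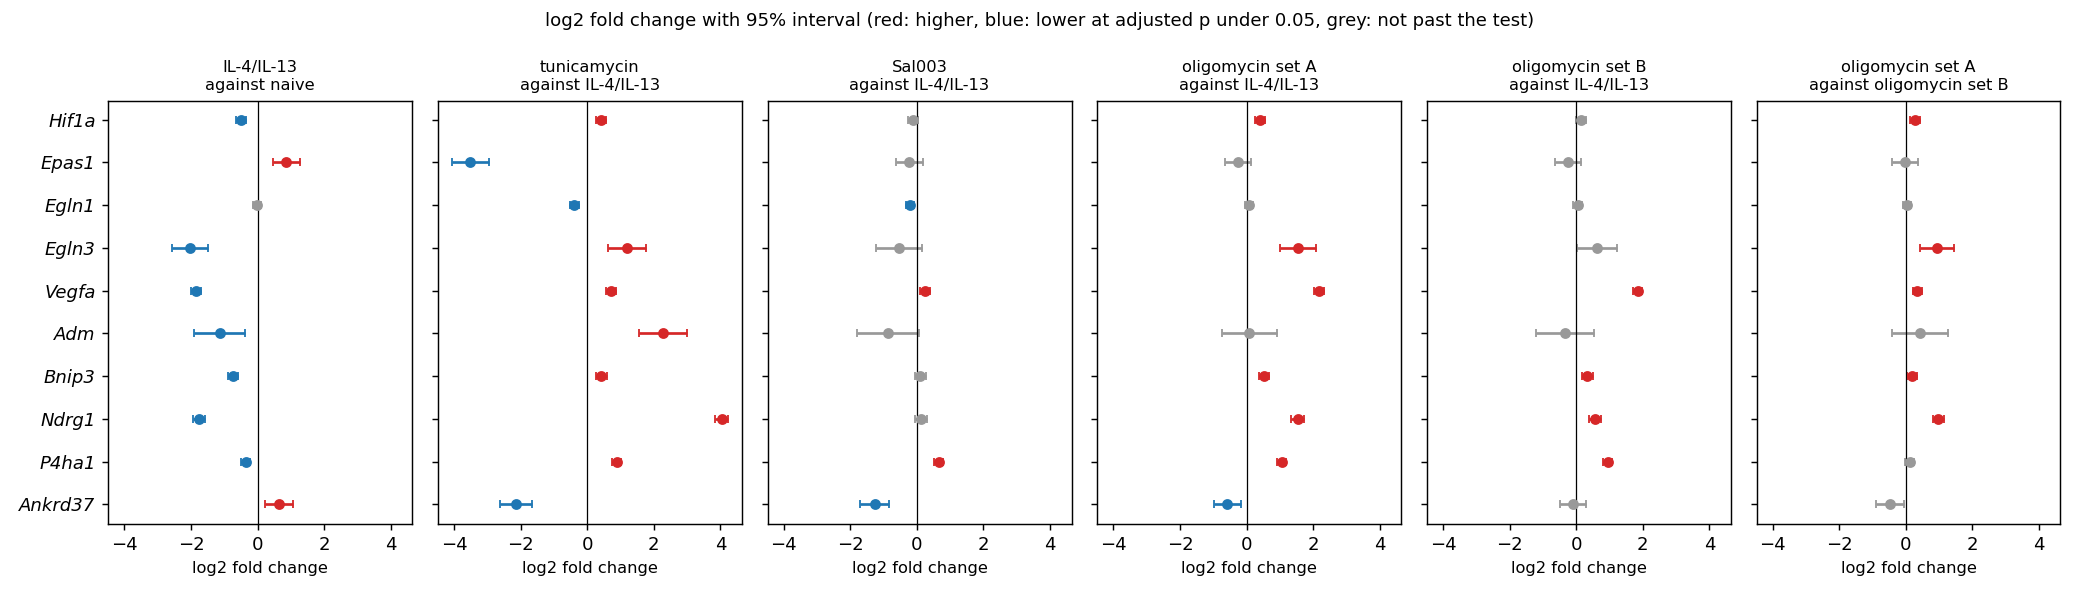
Each panel is 1 of the 6 comparisons and each row 1 gene. Points are log2 fold changes, first group minus second, on a shared linear axis, bars are 95% intervals from the edgeR fit (n = 4 mice per group), red and blue mark rises and falls at an adjusted *P* value under 0.05, and grey marks genes that did not pass. IL-4/IL-13 against naive has 7 blue and 2 red points, tunicamycin has 7 red and 3 blue, and Sal003 has 6 grey points.

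Other genes of the pathway were followed as lists, in the same fit. All list counts below stand beside the shares of all genes tested that were called. These were 60.5% for IL-4/IL-13 against naive, 76.3% for tunicamycin, 50.6% for Sal003, 66.2% for set A, 54.3% for set B and 41.2% between the sets. Higher genes made up 19.9% to 38.7% and lower genes 21.3% to 37.6%. Whether any list differed from these shares was not tested. Of 13 tested genes of HIF subunits, cofactors and oxygen sensing, 2 rose and 3 fell with IL-4/IL-13, and 6 rose and 2 fell with tunicamycin. Sal003 gave 4 higher and 1 lower, set A 4 and 3, and set B 4 and 2, and between the sets 2 were higher in set A and 2 lower. The list medians lay between 0.00 and 0.18 on the log2 scale.

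Genes of glycolysis and lactate export, the best known metabolic targets of HIF-1α, moved in both directions in each comparison. Of 19 tested, 10 rose and 5 fell with IL-4/IL-13 (median log2 fold change 0.31), a comparison in which 7 of 10 members fell. *Aldoc*, a glycolytic aldolase, was among those that fell (log2 fold change -1.47, SE 0.09, adjusted *P* = 1.4e-13 by edgeR's quasi-likelihood test). With tunicamycin 5 rose and 11 fell (median -0.26), and with Sal003 4 rose and 6 fell (median -0.05). In set A 7 rose and 9 fell, and in set B 11 rose and 5 fell, with medians of -0.05 and 0.16. Between the sets, 4 were higher in set A and 9 lower, *Aldoc* among the latter (log2 fold change -1.31, SE 0.09, adjusted *P* = 3.2e-11).

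Of 6 tested mitochondrial targets, 4 rose and 1 fell with IL-4/IL-13, 3 rose and 3 fell with tunicamycin, 1 rose and 3 fell with Sal003, 2 rose and 1 fell in oligomycin set A, and 1 rose and 2 fell in set B. Between the sets, 3 of them were higher in set A and 1 lower. Of 13 tested matrix and secreted targets, 4 rose and 6 fell with IL-4/IL-13, with a median of -1.03, and the largest rise was that of *Edn1*, the gene of endothelin-1 (0.58 to 9.42 CPM; log2 fold change 4.00, SE 0.19, adjusted *P* = 2.3e-15). With tunicamycin 4 of the matrix and secreted targets rose and 7 fell (median -0.70). More rose than fell with the other inhibitors, with 5 and 1 for Sal003 (median 0.39), 6 and 2 for set A (median 0.60) and 6 and 2 for set B (median 0.23), while between the sets 2 were higher in set A and 2 lower. *Edn1* fell with each inhibitor, with log2 fold changes of -4.96 for tunicamycin, -2.40 for Sal003, and -3.62 and -2.18 for oligomycin sets A and B. *Angptl4*, a secreted inhibitor of lipoprotein lipase, was lower in set A when the oligomycin sets were compared (log2 fold change -1.55, SE 0.18, adjusted *P* = 1.2e-07).

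Of 16 stress and chromatin targets, 6 rose and 3 fell with IL-4/IL-13, and 4 rose and 9 fell with tunicamycin. Higher and lower members of this list numbered 3 and 8 with Sal003, 4 and 6 for oligomycin set A, 2 and 8 for set B and 7 and 4 for set A relative to set B. *Bhlhe40*, a transcriptional repressor, rose with IL-4/IL-13 (log2 fold change 3.87, SE 0.12, adjusted *P* = 4e-19) and fell with tunicamycin (log2 fold change -4.30, SE 0.12, adjusted *P* = 2e-20). *Ero1a*, an oxidase of the endoplasmic reticulum, was higher in set A than in set B (log2 fold change 1.26, SE 0.09, adjusted *P* = 4.7e-11), and *Tfrc*, the transferrin receptor, was lower (log2 fold change -1.18, SE 0.14, adjusted *P* = 2.7e-07).

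Of 7 tested receptors and receptor partners for the secreted members and related peptides, 4 rose and 3 fell with IL-4/IL-13. *Flt1*, the receptor VEGFR1, rose from 3.04 to 201 CPM with IL-4/IL-13 (log2 fold change 6.04, SE 0.14, adjusted *P* = 2.7e-21), as its ligand gene *Vegfa* fell. It dropped to 0.269 CPM with tunicamycin (log2 fold change -9.51, SE 0.20, adjusted *P* = 4.5e-23). *Kdr*, the receptor VEGFR2, fell with IL-4/IL-13 (log2 fold change -3.27, SE 0.29, adjusted *P* = 5.1e-10) and rose with Sal003 (log2 fold change 3.51, SE 0.29, adjusted *P* = 2.3e-10). *Ramp3*, whose product forms an adrenomedullin receptor with that of *Calcrl*, and *Ramp1*, whose product forms with it the receptor for the related peptide CGRP, fell in set A (log2 fold change -2.89, SE 0.30, adjusted *P* = 5.1e-09 and log2 fold change -3.04, SE 0.15, adjusted *P* = 5.1e-15), in set B (log2 fold changes -2.35 and -1.88) and with Sal003 (-2.71 and -1.97). Of the whole receptor list, 2 rose and 4 fell with tunicamycin, and the counts were the same, 2 and 4, for Sal003, set A and set B, each against IL-4/IL-13. Between the sets, 0 were higher in set A and 3 lower. Among 10 tested paralogues of the members, 2 rose and 5 fell with IL-4/IL-13, and 6 rose and 1 fell in set A. The counts were 6 and 3 with tunicamycin, 3 and 1 with Sal003, 4 and 2 in set B and 4 and 2 for set A relative to set B. *Vegfc*, a lymphangiogenic relative of *Vegfa*, was higher in set A than in set B (log2 fold change 1.85, SE 0.15, adjusted *P* = 4.3e-10).

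The 4 reference genes of the ISR rose with every inhibitor, and 3 of them rose and 0 fell with IL-4/IL-13 against naive. *Asns*, the asparagine synthetase gene, had log2 fold changes of 4.51 for tunicamycin, 2.21 for Sal003, and 4.31 and 4.16 for oligomycin sets A and B. For *Trib3*, a pseudokinase gene, these were 7.87, 3.24, 7.24 and 5.35 in the same groups, beside 4.04, 0.12, 1.53 and 0.55 for *Ndrg1*, whose value with Sal003 did not pass the test. *Chac1*, which encodes an enzyme of glutathione breakdown, rose by 6.95 with tunicamycin, 6.14 in set A and 5.72 in set B on that scale.

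**Figure D4:**
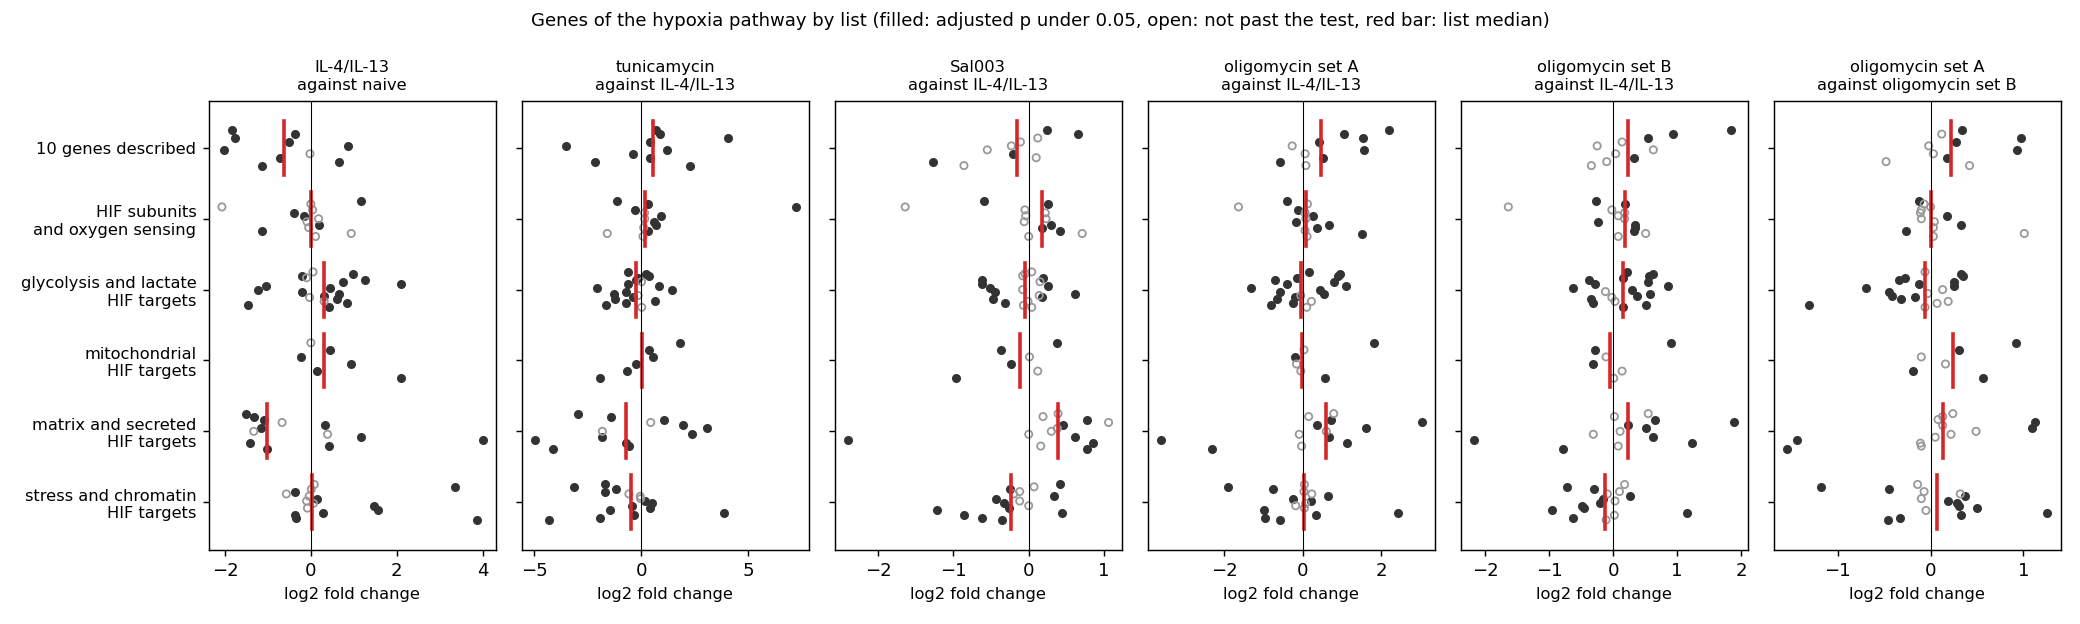
Rows are the 10 genes described and 5 further lists of the hypoxia pathway, panels are the 6 comparisons, and the horizontal axis is the log2 fold change with a range of its own in each panel. Each point is a gene, filled at an adjusted *P* value under 0.05, and red bars are list medians. Under IL-4/IL-13 the median of the 10 genes lies at -0.62 and that of the glycolysis list at 0.31.

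Across the 24 libraries, which are 6 groups of the same 4 mice and so not independent, the genes whose log2 CPM was most like that of each member by Pearson's r were found among all genes tested. For *Vegfa* they were *Arhgef3* (r = 0.964, rho = 0.931), *Snx18* (r = 0.928, rho = 0.943) and *Rala* (r = 0.909, rho = 0.92), where rho is Spearman's coefficient. For *Ndrg1* they were *Stk40* (r = 0.988, rho = 0.907), *Serp1* (r = 0.984, rho = 0.932) and *Rapgef5* (r = 0.981, rho = 0.965), and for *P4ha1* *Gyg1* (r = 0.957, rho = 0.936), *Spryd7* (r = 0.957, rho = 0.905) and *Lgals8* (r = 0.951, rho = 0.917). *Epas1* was most like *Sfxn3* (r = 0.977, rho = 0.855), *Adm* most like *Cxcl1* (r = 0.949, rho = 0.963), *Hif1a* most like *Fbxo42* (r = 0.905, rho = 0.844) and *Bnip3* most like *Cd300a* (r = 0.909, rho = 0.889). The closest gene to *Egln1* was *Hs6st1* (r = 0.901, rho = 0.776), that to *Egln3* *Cuedc1* (r = 0.897, rho = 0.883) and that to *Ankrd37* *Ldlrad4* (r = 0.902, rho = 0.916). These coefficients describe the level patterns over the groups and carry no test.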

How the data were processed

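Messenger RNA of 24 BMDM libraries was sequenced. Per the labels and the methods, the authors trimmed reads with cutadapt (1.8 in the submitters' processing notes), removed ribosomal and low-complexity reads with fastq_screen and reaper, mapped the remaining reads with STAR (2.7) on GRCm39, and obtained gene counts with HTSeq (0.9.1). The deposited counts used here are not normalized, and whether the counting used strand is not given in the sources used here. The 5 rows that name no gene took between 12.74% and 15.23% of reads and did not enter library sizes or tests. The authors also deposited RSEM values, not used here, as their header of 28 names does not match the cells of each line.

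The 10 members, the further lists and the tests were chosen with earlier results of these data known. Counts were tested with edgeR 4.0.16 in R 4.3.3 (TMM normalization, filterByExpr by group, quasi-likelihood test, 1 model with a coefficient per group over all libraries), and *P* values were adjusted with the Benjamini-Hochberg method over 13679 genes. A gene was called at an adjusted *P* value under 0.05, and also with the 2.5-fold minimum of the study. All 15 pairs of groups were tested, and 6 are the main comparisons. CPM are relative to the normalized library size. Exonic lengths, overlaps and promoter windows are from GRCm39 with the GENCODE annotation, which held 56323 of the 56884 identifiers. It is thus not the annotation that the counts were made on. Whether each overlapping transcript was also in that one was not checked. From the further lists, the 3 largest rises and the 3 largest falls of each comparison were named, among genes called in the same direction in all 4 mice with a mean of at least 50 counts, and for each member the genes of most similar pattern, by log2 CPM with a prior count of 2. A gene that this rule names is not reported here.

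A number marks a mouse, so libraries sharing it are paired. Deviations from group means correlated between paired libraries with a median r of 0.24 (above 0.1 in 56 of 60 pairs), and between unpaired ones with -0.05 (7 of 180 pairs). The study states no block, so the block was an alternative. Replicates of a group differed by more than sampling noise, and the median biological coefficient of variation was 7.06%. The fit was tested on simulated data. Alternatives were upper-quartile normalization, DESeq2 1.42.0, no filter on low counts, at least 10 counts in every library, only the groups compared, the mouse as a block, and leaving out each mouse.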

Additional observations from a re-analysis of the deposited data

Results flagged for a closer look

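Within each group of 4 libraries, the highest or lowest library was compared with the others by its gap relative to the range of the group. In 6 of 60 combinations of gene and group, this gap exceeded Dixon's 95% critical value, where chance gives about 1 in 20. *Epas1* in IL-4/IL-13 mouse 1 was high, at 5.51 CPM. *Egln1* was also high in this library, at 63.9 CPM. *Egln3* with Sal003 was high in mouse 2, at 0.733 CPM, where the other libraries of the group lay between 0.34 and 0.363 CPM. *Bnip3* with tunicamycin was high in mouse 2, at 24.3 CPM. *Ankrd37* was low in mouse 5 with Sal003, at 0.927 CPM, and high in mouse 4 of oligomycin set A, at 3.14 CPM. The values of these libraries stand in the results above, and the range of the results without each mouse is given below.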

How the results depend on the processing

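Of 582 values recomputed under the alternatives, 553 kept their direction and their side of the threshold, 10 turned their sign, 9 passed the test only in the alternative and 10 lost it. With the 2.5-fold minimum, the members called numbered 3 for IL-4/IL-13 against naive, 4 for tunicamycin, 0 for Sal003, 3 for oligomycin set A and 1 for oligomycin set B against IL-4/IL-13, and 0 between the oligomycin sets. The shares of all genes were 11.5%, 22.6%, 7.71%, 12.7%, 7.96% and 2.62% in the same order. All sign changes concern differences near 0 that passed no test. *Egln1* with IL-4/IL-13 against naive was 0.01 without the filter and 0 with DESeq2 on the log2 scale. In oligomycin set B against IL-4/IL-13, *Egln1* was -0.01 with upper-quartile normalization. Between set A and set B, *Epas1* was 0.02 with upper-quartile normalization. *Hif1a* with Sal003 passed the test when only the groups compared were fitted (log2 fold change -0.13, adjusted *P* = 0.011 by edgeR), and so did *Adm* (adjusted *P* = 0.038). *Ankrd37* between the oligomycin sets passed in 5 alternatives, with adjusted *P* values down to 0.0074 without mouse 5 and 0.035 with DESeq2. Over the 4 omissions of a mouse, *Egln1* ranged from -0.06 to 0.01 for IL-4/IL-13 against naive, from -0.01 to 0.06 for set B against IL-4/IL-13 and from 0 to 0.06 between the sets, *Ankrd37* in set B against IL-4/IL-13 from -0.17 to 0.05, and *Epas1* between the sets from -0.15 to 0.19. Leaving out each mouse gave 8 to 9 members called for IL-4/IL-13 against naive, 10 for tunicamycin, 3 to 4 for Sal003, 6 to 7 for set A, 4 for set B and 4 to 5 between the sets. Of all genes tested, these omissions called 52.5% to 60.1%, 71.5% to 73.9%, 41.4% to 48.8%, 60% to 64.2%, 45.5% to 52.1% and 31.9% to 39.2% in the same order.

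With the mouse as a replicate block, 9 members were called for IL-4/IL-13 against naive, 10 for tunicamycin, 5 for Sal003, 7 for set A, 4 for set B and 6 between the sets. Of all genes tested, the block called 63.7%, 78.3%, 53.4%, 68.7%, 57.5% and 44.3% in the same order, compared with 60.5%, 76.3%, 50.6%, 66.2%, 54.3% and 41.2% in the main fit. The additional calls were *Adm* with Sal003 and *Ankrd37* between the sets, and the block changed no other call. With at least 10 counts in every library, only 7 members could be tested, since *Epas1*, *Egln3* and *Adm* were dropped. Without any filter, 6633 genes (23.8% of 27890) were called for Sal003, against 6917 (50.6% of 13679) with it. *Epas1*, *Egln3*, *Adm* and *Ankrd37* had the fewest counts of the members and the widest intervals. For *Adm* with IL-4/IL-13 against naive, the SE was 0.37 in the main fit and 0.25 with the mouse as a block. The causes of the changes between settings, and of the widths of the intervals, were not tested.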
